A study of Homo sapiens with 16 samples.

Results

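The 10 genes described here encode receptors for the constant part of immunoglobulin G, FCGR2A, FCGR2B and FCGR2C, and the Fc receptor-like family, FCRL1, FCRL2, FCRL3, FCRL4, FCRL5, FCRLA and FCRLB. They were measured by 21 of the 50599 probes on the array, the probes whose gene name in the scanner output equals one of these names, out of 34423 gene names in all. FCRL5 had 6 probes, FCRL4, FCGR2B and FCGR2C had 1 each, and the other genes had 2 each. The genes were chosen by their levels in cells given both inhibitors compared with DMSO. Values of that comparison are therefore given as a description with no test, and the effects of each agent alone, which were tested, use the same DMSO arrays.

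The samples were 2 established human multiple myeloma cell lines, RPMI-8226 and MM.1S. Each line was grown for 6 days with DMSO, with GSK126 at 1 µM, with UNC0638 at 1 µM, or with both agents at 1 µM each. GSK126 inhibits EZH2, the methyltransferase of histone H3 lysine 27, and UNC0638 inhibits G9a (EHMT2), a methyltransferase of histone H3 lysine 9. There were 2 replicates in each of the 8 groups and therefore 16 arrays of 1 colour. The study calls the replicates biological, the labels only number them, and the p-values measure the spread between these samples. All results describe these lines in culture and not plasma cells of patients or of healthy bone marrow.

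Fc gamma receptors couple antibody to cells: FCGR2A and FCGR2C carry an activating (ITAM) motif, while FCGR2B carries an inhibitory (ITIM) motif and is the receptor by which B cells are restrained by immune complexes. FCRL1 to FCRL5 are membrane proteins of the same immunoglobulin superfamily that are found mainly on B lineage cells. Their tails carry ITAM-like motifs, ITIM motifs or both. FCRL4 marks a subset of tissue memory B cells, and FCRL5 is a surface protein of plasma cells that is studied as a target of antibodies in myeloma. FCRLA and FCRLB stay inside the cell, and FCRLA is a protein of the endoplasmic reticulum in B cells. All 10 genes lie on the long arm of chromosome 1 in 2 clusters. On GRCh37, the build of the array files, the probes of FCRL5, FCRL4, FCRL3, FCRL2 and FCRL1 followed each other in this order on the minus strand, from FCRL5 at chr1:157483238-157483297 to FCRL1 at chr1:157767952-157768011. The plus-strand cluster ran from FCGR2A at chr1:161488022-161488081 through FCGR2C, FCGR2B and FCRLA to FCRLB at chr1:161697713-161697772.

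Because FCGR2A, FCGR2B and FCGR2C are nearly identical over much of their length, the probes decide what was measured. The probe sequences of FCGR2B and FCGR2C are therefore shown, with those of FCRL4 and FCRL2 and with the FCRL5 probe nearest to the start of that gene. They are written in lower case, 5′ to 3′, as the array files give them, and no letters are marked.
FCGR2B A_23_P34644: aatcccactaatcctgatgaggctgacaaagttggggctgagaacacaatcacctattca
FCGR2C A_33_P3327617: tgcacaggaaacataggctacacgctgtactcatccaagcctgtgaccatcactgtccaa
FCRL4 A_23_P115200: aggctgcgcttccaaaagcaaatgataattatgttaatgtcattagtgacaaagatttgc
FCRL2 A_24_P319647: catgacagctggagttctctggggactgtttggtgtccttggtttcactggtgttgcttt
FCRL5 A_33_P3335522: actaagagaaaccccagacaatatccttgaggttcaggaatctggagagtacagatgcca
The FCGR2B probe spanned chr1:161647120-161647289, 170 bases of the genome for 60 bases of probe. The FCGR2C probe lay at chr1:161561128-161561187, the FCRL4 probe at chr1:157544635-157544694, the FCRL2 probe at chr1:157736677-157736736 and the FCRL5 probe at chr1:157516783-157516842. The 4 probes named for FCGR2 genes shared runs of at most 8 bases with each other. Likeness between probes does not show which transcripts a probe binds. The array files list the FCGR2C transcript among the targets of the FCGR2A probe A_23_P85716, and how much FCGR2A or FCGR2B RNA the FCGR2C probe binds was not tested, so the FCGR2A and FCGR2C values are uncertain in that respect.

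Levels are given as the log2 of the processed signal minus the log2 of the 75th percentile of the same array, so that 0 is the 75th percentile of that array, and a pair of values is always replicate 1 and then replicate 2. A probe was well above background on an array when the scanner software marked it so. Between 46.5% and 49.7% of the spots were well above background on the RPMI-8226 arrays and between 49.9% and 52.8% on the MM.1S arrays, and no spot was saturated. The 75th percentile of the signal was lower in RPMI-8226 (254 to 347) than in MM.1S (430 to 476), so that background lay higher on this scale in RPMI-8226. Each cell line was on a slide of its own, so any effect of the slide and of the line cannot be told apart. On each slide the replicate 1 arrays lay in row 1 and the replicate 2 arrays in row 2. Each treatment had a column of its own. Replicate number and row, and treatment and column, therefore cannot be told apart either. The plasma cell markers SDC1, TNFRSF17, PRDM1, XBP1, IRF4, CD38, SLAMF7, MZB1 and IGJ were well above background in every group and CD27 was not, while of the B cell markers CD79A, CR2, BACH2, SPIB and CIITA were so on both arrays of every group, CD79B and CXCR5 in every MM.1S group, and PAX5 and CD22 in none.

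Few of the 10 genes were measurable in DMSO and most were with both agents. In RPMI-8226 cells, 3 genes had a probe well above background on both DMSO arrays, 6 with GSK126, 7 with UNC0638 and 8 with both agents. In MM.1S cells the corresponding numbers were 4, 7, 10 and 10. The genes were chosen by their levels with both agents against DMSO, so a rise between those groups was built in. Of all spots in RPMI-8226, 47.4% and 47.1% were well above background with DMSO and 49.7% and 48.4% with both agents. In MM.1S these shares were 50.4% and 49.9% with DMSO and 52.1% and 51.8% with both agents. Probes entered the tests of a cell line if the arrays of 1 of its groups, or of more, both marked them well above background, which kept 14 of the 21 probes in RPMI-8226 and 19 in MM.1S. A probe that entered through a treated group in this way had to be higher there, so the number of probes called is a description of the family. In bulk RNA, a higher level in every cell and a larger share of cells with the transcript cannot be told apart.

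**Figure D1:**
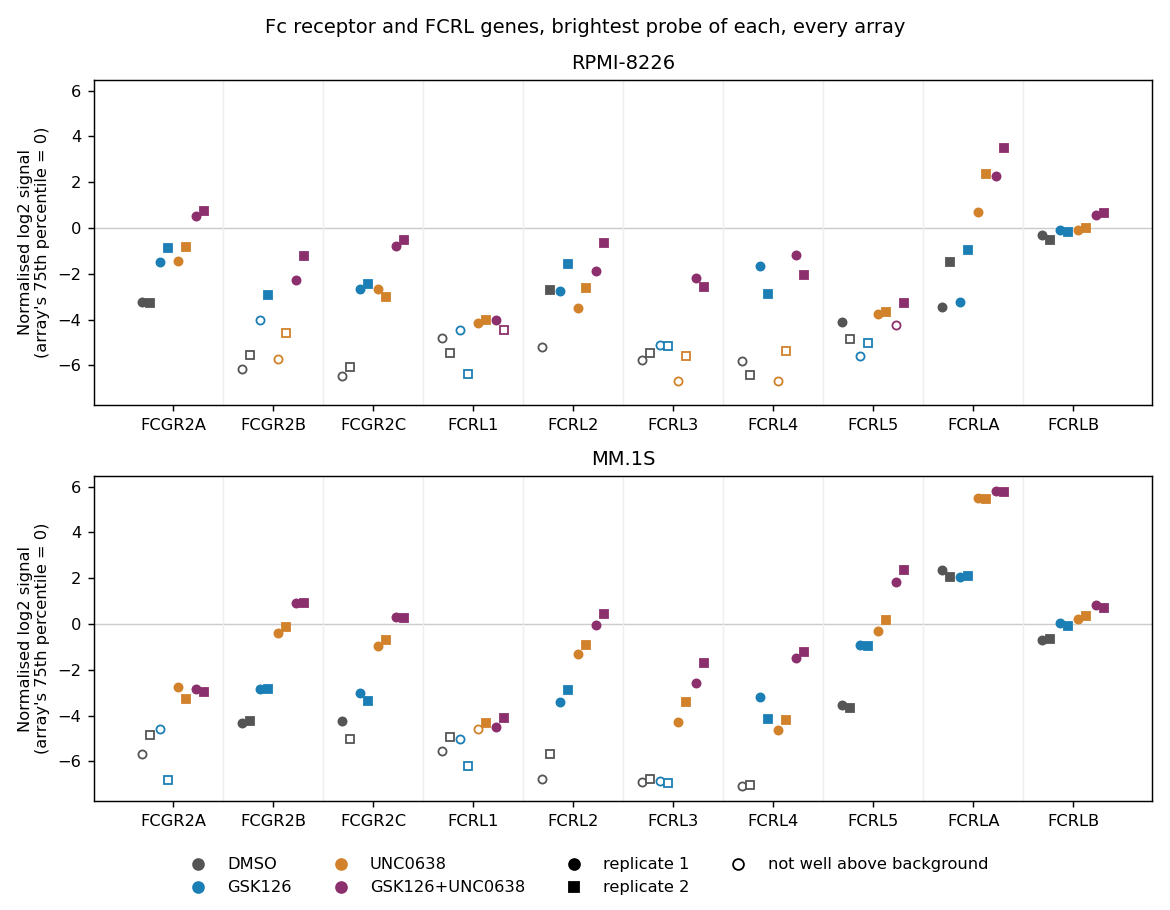
Normalised log2 signal (0 is the 75th percentile of the array) of 1 probe for each of the 10 genes on every array, in RPMI-8226 (top) and MM.1S (bottom). Colours are treatments, circles replicate 1, squares replicate 2, and open symbols arrays on which the probe was not well above background. In MM.1S the probes of all 10 genes were well above background with both agents, whereas in RPMI-8226 FCRL1 and FCRL5 were so on only 1 array of that group.

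In RPMI-8226 cells, GSK126 alone raised FCGR2A and FCGR2C, and no probe of the family was called lower. At an adjusted p of 0.05 in limma, 3 of 14 probes were higher with GSK126 than with DMSO, where 0.543% of all 23196 probes tested were higher. The median log2 difference of the 14 probes was 1.14, beside -0.06 over all probes. UNC0638 also left 3 of 14 probes higher, of the same genes, where 0.556% of all probes were higher, with medians of 0.97 and -0.05. With the replicate number as a block, 5 probes differed from DMSO with GSK126 (2.12% of all probes in either direction) and 5 with UNC0638 (1.79%). These counts rested on few arrays, as leaving out any 1 of the 4 arrays compared left 0 or 1 probe called with GSK126 and 1 with UNC0638.

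FCGR2A, the activating receptor, was low but measurable in RPMI-8226 cells. The probe A_23_P85716 read -3.25 and -3.29 with DMSO, -1.5 and -0.89 with GSK126, -1.43 and -0.84 with UNC0638, and 0.52 and 0.76 with both agents. The groups given 1 agent did not overlap with DMSO or with the combination, but they overlapped with each other. The difference from DMSO was 2.07 ± 0.27 (log2 ± SE, n = 2 and 2) or 4.21-fold with GSK126 (limma adjusted p = 0.0421) and 2.14 ± 0.27 or 4.4-fold with UNC0638 (limma adjusted p = 0.0329). The second probe, A_33_P3403576, gave 3.13 ± 0.33 or 8.78-fold with GSK126 (limma adjusted p = 0.0245) and 2.71 ± 0.33 or 6.56-fold with UNC0638 (limma adjusted p = 0.0297), against a DMSO group above background on 1 of 2 arrays. Leaving out any 1 of the 4 arrays compared, DMSO or treated, raised the adjusted p of both FCGR2A probes above 0.05, to between 0.0545 and 0.175, while the differences stayed between 1.77 and 3.50. With no filter on dim probes the adjusted p of the 4 differences was 0.0736 to 0.109. With both agents the levels stood 15-fold and 29.3-fold above DMSO for A_23_P85716 and A_33_P3403576.

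In MM.1S cells FCGR2A was not well above background with DMSO or GSK126. A_33_P3403576 read -6.49 and -6.79 with DMSO, -6.80 and -6.43 with GSK126, -2.74 and -2.08 with UNC0638, and -1.66 and -1.39 with both agents. UNC0638 thus left the gene at least 5.14-fold higher than DMSO (4.23 ± 0.26, limma adjusted p = 0.000698). A fold written as "at least" sets the measured group against the lowest signal that was well above background on the arrays of the other group, or the probe's own value there if higher. The other probe read -2.77 and -3.28 with UNC0638 against -5.66 and -4.86 with DMSO, and its difference missed the threshold (2.23 ± 0.70, limma adjusted p = 0.0584). The GSK126 effect on A_33_P3403576 differed between the lines by 3.11 ± 0.46 (limma interaction, adjusted p = 0.0153; 0.776% of 26928 probes differed in either direction). Without the replicate 1 array of MM.1S with DMSO or with GSK126 the interaction was not called, with an adjusted p of up to 0.0725. For A_23_P85716 the same interaction was 2.52 ± 0.82 (limma adjusted p = 0.269), and its MM.1S values lay at background.

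FCGR2B, the inhibitory receptor, was measured on every MM.1S array and rose with each agent there. It read -4.34 and -4.24 with DMSO, -2.85 and -2.82 with GSK126, -0.40 and -0.11 with UNC0638, and 0.90 and 0.91 with both agents, so no groups overlapped. GSK126 raised it 2.74-fold (1.45 ± 0.11, limma adjusted p = 0.00415) and UNC0638 16.5-fold (4.04 ± 0.11, limma adjusted p = 0.000227). The direct comparison placed GSK126 6.0-fold below UNC0638 (-2.59 ± 0.11, limma adjusted p = 0.000562). With both agents the level stood 36.6-fold above DMSO. In 1 fit over all 16 arrays, the GSK126 difference was not called (limma adjusted p = 0.123).

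In RPMI-8226 cells FCGR2B was below background with DMSO (-6.16 and -5.56) and UNC0638 (-5.71 and -4.57), above it on 1 array with GSK126 (-4.00 and -2.92), and above it on both with the combination (-2.26 and -1.21). The replicate 2 array was the higher in all 4 groups. The GSK126 difference was 2.39 ± 0.56 (limma adjusted p = 0.184), and with the replicate number as a block it was 2.39 ± 0.17 (limma adjusted p = 0.006). The combination was at least 5.78-fold above DMSO. The UNC0638 effect on FCGR2B differed between the lines by -3.33 ± 0.64 (limma interaction, adjusted p = 0.0259; 2.85% of all probes differed in either direction), with both RPMI-8226 groups at background. Leaving out RPMI-8226 DMSO replicate 2, RPMI-8226 UNC0638 replicate 1 or any of the 4 MM.1S arrays ended that call, with an adjusted p of up to 0.0866.

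The groups of the FCGR2C probe stood in the order seen for FCGR2A in RPMI-8226 and in that seen for FCGR2B in MM.1S. In RPMI-8226 it read -6.45 and -6.06 with DMSO, -2.65 and -2.44 with GSK126, -2.66 and -3.03 with UNC0638, and -0.78 and -0.54 with both agents. Only the DMSO values were below background, and those of the agents given alone overlapped none of the DMSO or combination values. GSK126 left it at least 3.29-fold higher (3.71 ± 0.21, limma adjusted p = 0.00916), which was not called without GSK126 replicate 1 (adjusted p = 0.0581), and UNC0638 at least 2.67-fold higher (3.41 ± 0.21, limma adjusted p = 0.00527). With normexp background correction the UNC0638 difference shrank to 0.61 (limma adjusted p = 0.152).

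In MM.1S the FCGR2C probe read -4.24 and -5.03 with DMSO, -3.02 and -3.35 with GSK126, -0.97 and -0.71 with UNC0638, and 0.30 and 0.27 with both agents. The DMSO group was above background on 1 of 2 arrays, and against it the probe rose 2.73-fold with GSK126 (1.45 ± 0.27, limma adjusted p = 0.0339) and 13.9-fold with UNC0638 (3.80 ± 0.27, limma adjusted p = 0.00101). The GSK126 call was lost without MM.1S DMSO replicate 2 or either GSK126 array (adjusted p up to 0.16) and with no filter on dim probes (0.11). With both agents the level was 30.3-fold above DMSO in MM.1S and at least 12.2-fold above it in RPMI-8226. The GSK126 effect was larger in RPMI-8226 than in MM.1S by 2.26 ± 0.36 (limma interaction, adjusted p = 0.0223). Leaving out RPMI-8226 DMSO replicate 1, RPMI-8226 GSK126 replicate 1 or either MM.1S GSK126 array ended that call (adjusted p up to 0.0882), as did normexp background correction, where the interaction was 0.42 (limma adjusted p = 0.471).

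**Figure D2:**
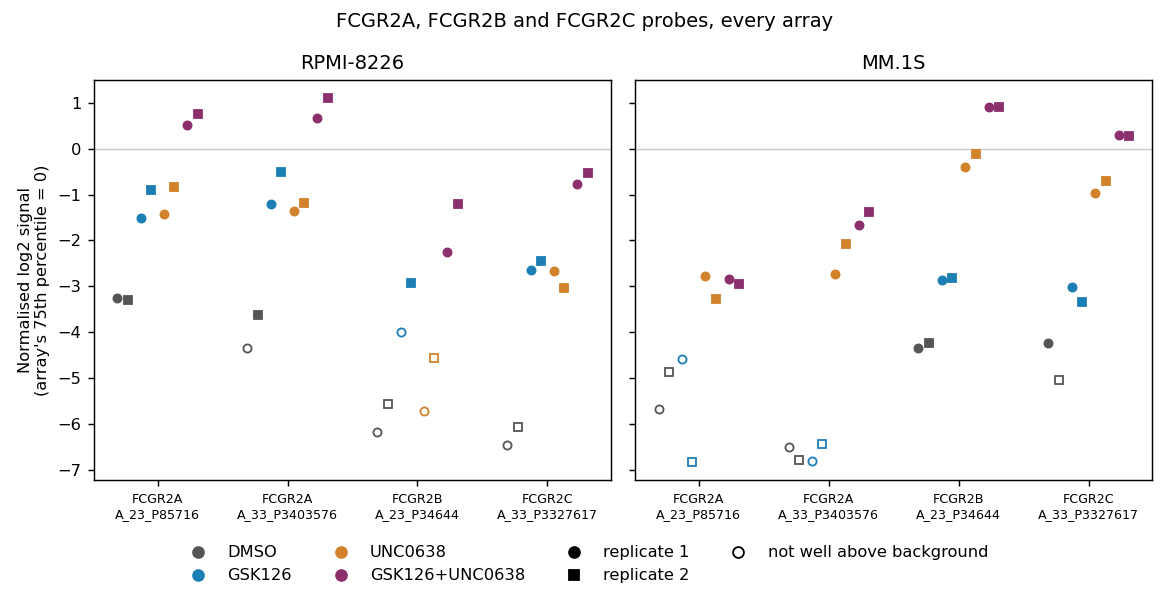
Normalised log2 signal of the 4 probes named for FCGR2A, FCGR2B and FCGR2C on every array (x axis, probe; y axis, log2 signal with 0 at the 75th percentile of the array); open symbols were not well above background. In RPMI-8226 the GSK126 and UNC0638 points of FCGR2A and FCGR2C lie side by side, whereas in MM.1S the UNC0638 points of all 4 probes lie above the GSK126 points.

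In MM.1S cells GSK126 alone raised 11 of the 19 probes, from 6 genes (FCRL2, FCRL4, FCRL5, FCRLB, FCGR2B and FCGR2C), and none was called lower, where 5.06% of all 25100 probes were higher. UNC0638 raised 16 of 19 probes, from all 10 genes, where 12.8% of all probes were higher. The median log2 differences of the 19 probes were 0.68 and 3.28, beside -0.05 and -0.07 over all probes. Compared directly, 12 of 19 probes from 9 genes were lower with GSK126 than with UNC0638 and none was higher, where 6.06% of all probes were lower. FCRL4 was the gene without such a call. FCRLB had it only through A_33_P3299285 (-0.56, limma adjusted p = 0.0424), which missed the threshold in 10 of 13 alternatives. Among these were the replicate number as a block (limma adjusted p = 0.0517) and 1 fit over all 16 arrays (0.217). The GSK126 count rested on few arrays: it was 7 without DMSO replicate 1, 6 without DMSO replicate 2, 4 without GSK126 replicate 1 and 6 without GSK126 replicate 2. The UNC0638 count was 16 or 17 when any 1 of its arrays was left out.

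FCRL5 rose with each agent in MM.1S and stayed near background in RPMI-8226. The probe nearest to the end of the gene, A_23_P201211, read -3.53 and -3.68 with DMSO, -0.90 and -0.96 with GSK126, -0.30 and 0.19 with UNC0638, and 1.85 and 2.38 with both agents in MM.1S. Each treated group lay above DMSO and the combination above both agents given alone. GSK126 raised it 6.37-fold (2.67 ± 0.22, limma adjusted p = 0.00513) and UNC0638 11.7-fold (3.55 ± 0.22, limma adjusted p = 0.000757), and the agents differed from each other by -0.88 (limma adjusted p = 0.056). With both agents the level stood 52.6-fold above DMSO.

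The other FCRL5 probes of MM.1S followed the same order of groups where they could be measured. A_33_P3335506, which lies further inside the gene at chr1:157493614-157493673, read -5.60 and -5.72 with DMSO (below background), -1.97 and -1.55 with GSK126, -0.94 and -0.42 with UNC0638, and 0.76 and 1.32 with both agents. It was at least 8.08-fold higher with GSK126 (3.90 ± 0.26, limma adjusted p = 0.0039) and at least 17.1-fold higher with UNC0638 (4.98 ± 0.26, limma adjusted p = 0.000547). The probe nearest to the start of the gene, A_33_P3335522, whose sequence stands above, read -6.73 and -6.74 with DMSO, -4.37 and -3.97 with GSK126, -3.03 and -2.32 with UNC0638, and -2.01 and -1.37 with both agents.

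For that probe, GSK126 gave at least 1.52-fold (limma adjusted p = 0.0111) and UNC0638 at least 4.3-fold (limma adjusted p = 0.00121). The GSK126 call of A_33_P3335522 was lost when any of its 4 arrays was left out (adjusted p 0.0502 to 0.0637) and with normexp background correction (0.32, limma adjusted p = 0.205). A_33_P3335525 was called with GSK126 (1.51, limma adjusted p = 0.0262) although neither group was above background, and the call was lost without any 1 of its 4 arrays (adjusted p 0.0764 to 0.135). It was well above background with UNC0638 (-4.17 and -3.42) and with both agents (-2.43 and -2.13). A_21_P0010658 was so with both agents only (-3.94 and -3.32), and A_33_P3335511 on 1 array of that group (-4.49). Probes at either end of the gene thus showed the change, and their levels cannot be compared with each other, since probes differ in brightness.

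In RPMI-8226 cells, A_23_P201211 was the FCRL5 probe that could be followed, and it stayed near background. It read -4.09 and -4.85 with DMSO (above background on 1 array), -5.61 and -5.04 with GSK126 (on none), -3.77 and -3.67 with UNC0638 (on both) and -4.23 and -3.28 with both agents (on 1). A_33_P3335506 was above background on 1 array, that of both agents in replicate 2 (-3.66), and the other 4 probes on none. The lines differed in their response to GSK126 by -3.52 ± 0.49 for A_23_P201211 (limma interaction, adjusted p = 0.0125) and by -4.22 ± 0.66 for A_33_P3335506 (limma interaction, adjusted p = 0.02). Both calls were lost without MM.1S GSK126 replicate 1, and the second also without MM.1S GSK126 replicate 2, either MM.1S DMSO array, RPMI-8226 DMSO replicate 1 or RPMI-8226 GSK126 replicate 1 (adjusted p up to 0.078).

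The response of FCRL5 to UNC0638 also differed between the lines. The response in RPMI-8226 minus that in MM.1S was -2.80 ± 0.49 for A_23_P201211 (limma interaction, adjusted p = 0.0177), and -4.99 (adjusted p = 0.00455), -3.41 (adjusted p = 0.000548) and -4.17 (adjusted p = 0.00491) for A_33_P3335506, A_33_P3335525 and A_33_P3335522 in the same limma fit. The call of A_23_P201211 was lost without either RPMI-8226 UNC0638 array, either MM.1S DMSO array or MM.1S UNC0638 replicate 2 (adjusted p up to 0.0678), and the other 3 calls held without any of the 8 arrays. For the last 3 probes all these RPMI-8226 values and the MM.1S DMSO values lay at background. The size of a change below it is therefore not known. These 3 probes passed the filter only through treated MM.1S groups, so a larger response in MM.1S was built in. That their calls held without an array adds no support. A_23_P201211 was above background on both RPMI-8226 arrays with UNC0638 and on 1 with DMSO.

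**Figure D3:**
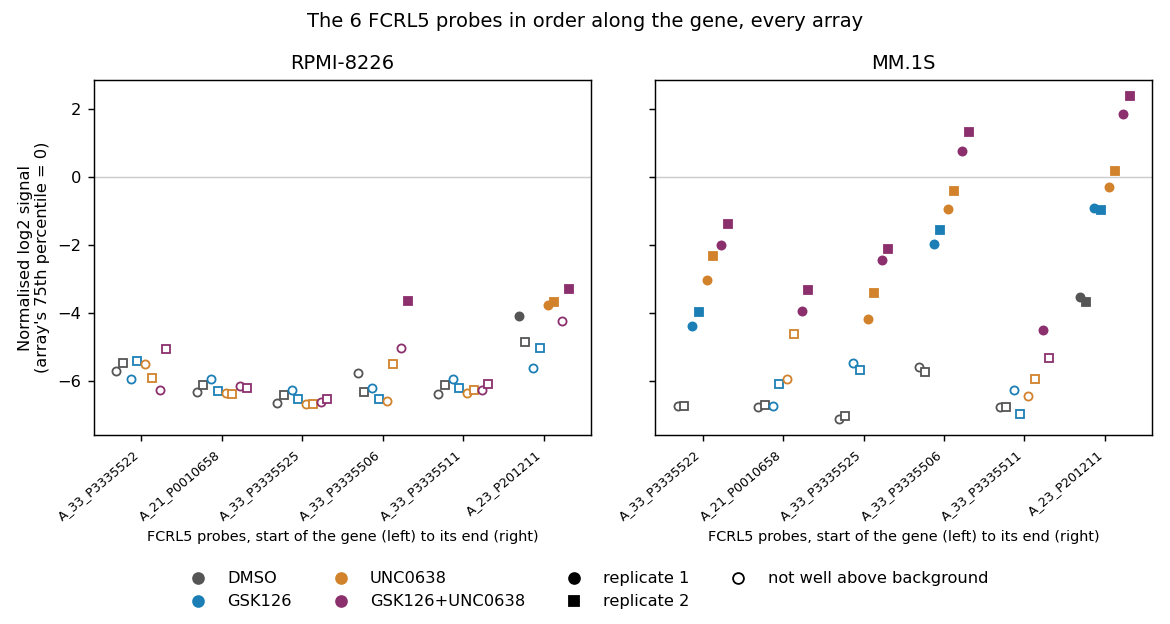
Normalised log2 signal of the 6 FCRL5 probes on every array, placed from the start of the gene (left) to its end (right) in each cell line; colours are treatments and open symbols were not well above background. In MM.1S the probes that could be measured rose from DMSO through GSK126 and UNC0638 to both agents, while in RPMI-8226 nearly all symbols are open.

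FCRL4, a receptor of memory B cells with ITIM motifs, was below background with DMSO in both lines. In RPMI-8226 it read -5.83 and -6.42 with DMSO, -1.68 and -2.90 with GSK126, -6.68 and -5.36 with UNC0638, and -1.18 and -2.07 with both agents. It was thus measurable only in the groups that received GSK126, whose values overlapped. The difference between GSK126 and UNC0638 was at least 4.33-fold (3.73 ± 0.59, limma adjusted p = 0.0408), the only one of the 14 probes called in that comparison, where 0.819% of all probes were higher. That between GSK126 and DMSO was at least 3.92-fold and missed the threshold (3.84 ± 0.59, limma adjusted p = 0.0561), but passed it with the replicate number as a block (limma adjusted p = 0.0375). The GSK126 to UNC0638 call was lost without any 1 of its 4 arrays (adjusted p 0.0576 to 0.201), with quantile normalisation (0.0914), with normexp background correction (0.0615) and with no filter on dim probes (0.0909).

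In MM.1S both agents raised FCRL4. It read -7.09 and -7.02 with DMSO, -3.19 and -4.16 with GSK126, -4.61 and -4.20 with UNC0638, and -1.5 and -1.22 with both agents. The treated groups were all above background, and both arrays of the combination were higher than those of the agents alone. GSK126 gave at least 2.15-fold (3.38 ± 0.32, limma adjusted p = 0.00647) and UNC0638 at least 1.29-fold (2.65 ± 0.32, limma adjusted p = 0.00419). GSK126 and UNC0638 differed by 0.73 ± 0.32, which missed the threshold (limma adjusted p = 0.187). The response to UNC0638 differed between the lines by -2.54 ± 0.75, short of the threshold (limma interaction, adjusted p = 0.105). With both agents FCRL4 was at least 6.22-fold above DMSO in RPMI-8226 and at least 10.7-fold above it in MM.1S.

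FCRL2, a B cell receptor with ITIM motifs, was measured by a pair of probes that moved together. In MM.1S, A_24_P319647 read -6.79 and -5.68 with DMSO, -3.41 and -2.90 with GSK126, -1.33 and -0.91 with UNC0638, and -0.05 and 0.46 with both agents. Only DMSO was below background, and no groups overlapped. GSK126 gave at least 3.08-fold (3.08 ± 0.40, limma adjusted p = 0.0144) and UNC0638 at least 12.6-fold (5.12 ± 0.40, limma adjusted p = 0.00131). The GSK126 call of this probe was lost without either GSK126 array (adjusted p up to 0.0653), with no filter on dim probes (0.0546) and in 1 fit over all 16 arrays (0.0581). The probe A_23_P160751 gave at least 1.19-fold (limma adjusted p = 0.00931) and at least 8.25-fold (limma adjusted p = 0.000525), the first lost without GSK126 replicate 1 (0.0581) and with normexp background correction (0.35, limma adjusted p = 0.162). With both agents the probes were at least 31.5-fold and 23.3-fold above DMSO.

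In RPMI-8226 the replicates of FCRL2 lay far apart. A_24_P319647 read -5.21 and -2.70 with DMSO, -2.75 and -1.58 with GSK126, -3.49 and -2.63 with UNC0638, and -1.89 and -0.66 with both agents. Replicate 2 was higher in every group, by 2.51, 1.17, 0.86 and 1.23, and DMSO replicate 2 overlapped with both groups given 1 agent. A_23_P160751 differed from DMSO by 2.44 with GSK126 (limma adjusted p = 0.416), and with the replicate number as a block the adjusted p was 0.0508. With both agents the probes A_23_P160751 and A_24_P319647 stood 11.7-fold and 6.41-fold above DMSO. These folds rest on a DMSO group in which both probes were well above background on replicate 2 alone.

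FCRL3, another receptor of the surface group, was seen by A_33_P3368334 alone, as A_23_P103803 was below background on all 16 arrays. In MM.1S it read -6.90 and -6.77 with DMSO, -6.85 and -6.93 with GSK126, -4.27 and -3.39 with UNC0638, and -2.56 and -1.71 with both agents. UNC0638 thus gave at least 1.92-fold over DMSO (3.01 ± 0.36, limma adjusted p = 0.00414), while GSK126 stayed at background (-0.06, limma adjusted p = 0.937). In RPMI-8226 it read -5.78 and -5.45 with DMSO, -5.12 and -5.16 with GSK126, -6.69 and -5.60 with UNC0638, and -2.19 and -2.58 with both agents. In that line the gene was measurable only when both agents were given, at least 3.68-fold above DMSO, and in MM.1S the combination was at least 6.24-fold above DMSO. The response to UNC0638 differed between the lines (-3.53 ± 0.55, limma interaction, adjusted p = 0.0103) with RPMI-8226 at background, but not past the threshold with normexp background correction (-0.71, limma adjusted p = 0.0816).

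FCRL1, a receptor with ITAM-like motifs that is typical of naive and memory B cells, was below background with DMSO and GSK126 in both lines. In MM.1S, A_23_P149368 read -5.72 and -6.56 with DMSO, -6.63 and -6.11 with GSK126, -2.67 and -2.42 with UNC0638, and -2.39 and -1.94 with both agents. The groups with UNC0638 were at least 4.7-fold (3.60 ± 0.33, limma adjusted p = 0.00208) and, with both agents, at least 6.1-fold above DMSO. In RPMI-8226 the same probe was below background on all 8 arrays, at -4.90 and -4.08 with UNC0638. The second probe, A_33_P3294504, was dimmer in MM.1S, between -6.21 and -4.09 over all groups, and above background on both arrays with both agents only. In RPMI-8226 that second probe was above background on both arrays with UNC0638 (-4.16 and -4.02).

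FCRLA, the protein of the endoplasmic reticulum, rose with UNC0638 in MM.1S, passed the threshold with UNC0638 in RPMI-8226 only with the replicate number as a block, and was not called with GSK126 in either line. In MM.1S, A_23_P46039 read 2.37 and 2.07 with DMSO, 2.06 and 2.10 with GSK126, 5.51 and 5.45 with UNC0638, and 5.82 and 5.75 with both agents. The DMSO and GSK126 values overlapped, and those of UNC0638 and the combination lay close together, far above them. UNC0638 raised the probe 9.58-fold (3.26, limma adjusted p = 0.000245), and the difference with GSK126 was -0.14 (limma adjusted p = 0.47). A_24_P276576 gave 9.72-fold with UNC0638 (3.28 ± 0.11, limma adjusted p = 0.00024) and -0.11 with GSK126 (limma adjusted p = 0.546). The level of A_24_P276576 with GSK126 was 10.5-fold below that with UNC0638 (-3.39), and the same difference for A_23_P46039 was -3.4 (limma adjusted p = 0.000368 for each). With both agents A_23_P46039 and A_24_P276576 stood 11.8-fold and 11.9-fold above DMSO.

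In RPMI-8226, A_23_P46039 read -3.47 and -1.48 with DMSO, -3.25 and -0.98 with GSK126, 0.69 and 2.36 with UNC0638, and 2.27 and 3.50 with both agents, all above background. Replicate 2 was higher in each group, by 1.99, 2.27, 1.67 and 1.23. Between arrays of the same replicate number, UNC0638 differed from DMSO by 4.17 and 3.85, and GSK126 from DMSO by 0.22 and 0.50. UNC0638 was 16.1-fold above DMSO, which missed the threshold (4.01 ± 1.01, limma adjusted p = 0.214) and passed it with the replicate number as a block (4.01 ± 0.25, limma adjusted p = 0.00441). A_24_P276576 was at least 9.19-fold higher (4.25 ± 0.96, limma adjusted p = 0.164), and with the block the SE was 0.26 (limma adjusted p = 0.00427). With that block, the difference of GSK126 minus UNC0638 was -3.65 and -3.84 for these probes (limma adjusted p = 0.00446 for each), and 4 probes of the family differed between the agents, where 3.45% of all probes did. With both agents A_23_P46039 was 41.3-fold and A_24_P276576 at least 27.1-fold above DMSO. The response to UNC0638 differed between the lines by 0.75 ± 1.16 for A_23_P46039 (limma interaction, adjusted p = 0.794).

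**Figure D4:**
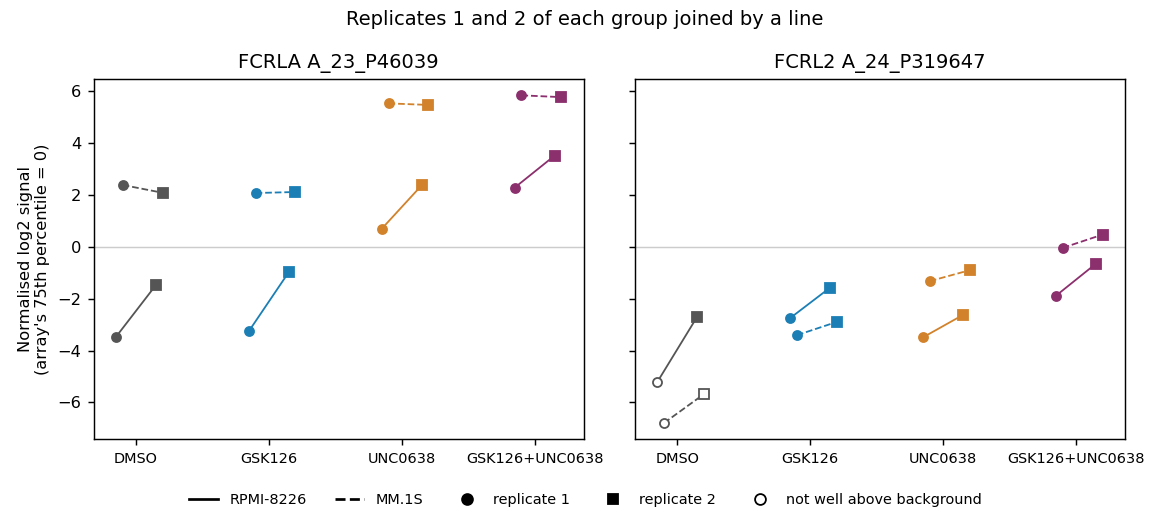
Normalised log2 signal of FCRLA and FCRL2 (1 probe each) for replicate 1 and replicate 2 of each treatment, joined by lines, solid for RPMI-8226 and dashed for MM.1S. In RPMI-8226 replicate 2 lies above replicate 1 in every group, by 1.23 to 2.27 for FCRLA, whereas the MM.1S lines are almost level for FCRLA.

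FCRLB, the other intracellular member, was well above background on all 16 arrays and rose with each agent in MM.1S. In MM.1S, A_23_P350574 read -0.69 and -0.67 with DMSO, 0.03 and -0.07 with GSK126, 0.24 and 0.35 with UNC0638, and 0.81 and 0.69 with both agents. GSK126 raised it 1.58-fold (0.66 ± 0.09, limma adjusted p = 0.0152) and UNC0638 1.97-fold (0.98, limma adjusted p = 0.00201). The second probe, A_33_P3299285, gave 1.61-fold (limma adjusted p = 0.0344) and 2.37-fold (limma adjusted p = 0.00272). The GSK126 calls were lost without DMSO replicate 1, DMSO replicate 2 or GSK126 replicate 1, and for A_33_P3299285 also without GSK126 replicate 2 (adjusted p up to 0.161), and with no filter on dim probes (0.0638 and 0.117). In RPMI-8226 A_23_P350574 read -0.30 and -0.54 with DMSO, -0.08 and -0.17 with GSK126, -0.10 and -0.01 with UNC0638, and 0.57 and 0.66 with both agents. The combination stood 2.05-fold above DMSO in RPMI-8226 and 2.70-fold in MM.1S for A_23_P350574.

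With both agents, described here without a test, 12 of the 14 probes kept in RPMI-8226 stood more than 2-fold above DMSO, from 8 genes, where 8.2% of all probes did. In MM.1S 18 of 19 probes from all 10 genes did so, where 10.7% of all probes did, counting a probe below background in DMSO by its lower bound as well. These values chose the genes, and nothing is read from the counts. FCRLB lay just inside that bound in RPMI-8226, at 2.02-fold and 2.05-fold, and FCRL5 just outside it, at 1.64-fold. FCRL1 A_33_P3294504 also lay outside it, with means of -5.14 with DMSO, below background, and -4.23 with both agents. The effects of the agents given alone are measured against the same DMSO arrays.

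**Figure D5:**
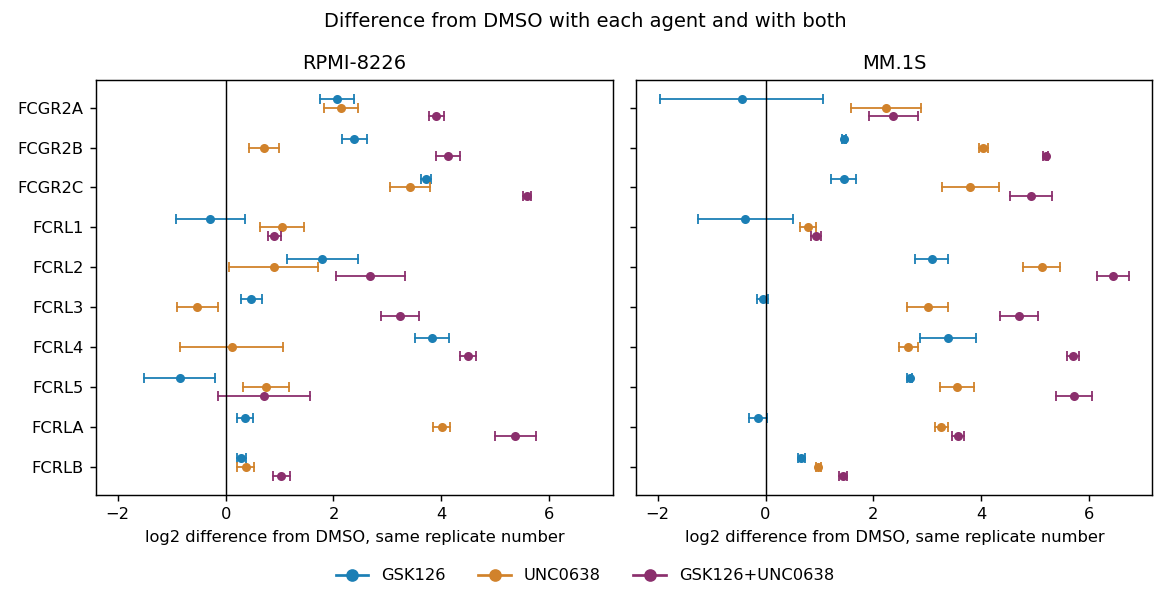
Difference in log2 signal from the DMSO array of the same replicate number for 1 probe of each gene, with ticks for the 2 replicates and a dot for their mean, in RPMI-8226 and MM.1S; colours are GSK126, UNC0638 and both agents. In MM.1S the UNC0638 dots lie to the right of the GSK126 dots for 9 of the 10 genes, FCRL4 being the other. Differences from values at background are not measures of size.

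The levels without inhibitor differed between the lines for 9 of 19 probes, 5 higher and 4 lower in RPMI-8226, where 28.9% of all probes were higher and 28.8% lower. FCRLA stood out: A_23_P46039 read -3.47 and -1.48 in RPMI-8226 against 2.37 and 2.07 in MM.1S, 26-fold lower (-4.70 ± 0.82, limma adjusted p = 0.000607), and A_24_P276576 was at least 18.1-fold lower (limma adjusted p = 0.000199). FCGR2A was higher in RPMI-8226, at least 2.84-fold for A_23_P85716 (1.99, limma adjusted p = 0.013) and at least 1.72-fold for A_33_P3403576 (2.65, limma adjusted p = 4.77e-05). The FCGR2B and FCGR2C probes were lower in RPMI-8226 (-1.56 and -1.62 on the log2 scale, limma adjusted p = 0.0128 and 0.000307), with no bound on the fold because RPMI-8226 lay at background. With normexp background correction these values turned to 0.1 and 0.11.

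Among the other calls between the DMSO groups, FCRL2 A_24_P319647 was at least 1.76-fold higher in RPMI-8226 (limma adjusted p = 0.0261), a call lost without RPMI-8226 DMSO replicate 2 or MM.1S DMSO replicate 1 (adjusted p up to 0.235, differences from 1.03 to 3.53). FCRL3 A_33_P3368334 and FCRL5 A_33_P3335522 were called higher by 1.22 and 1.13 with neither line above background, and background itself lay higher on this scale in RPMI-8226. The FCRL5 call was lost without any 1 of the 4 DMSO arrays (adjusted p 0.064 to 0.119), the FCRL3 call without RPMI-8226 DMSO replicate 2 or either MM.1S DMSO array (up to 0.102), and both with quantile normalisation (0.0576 and 0.0616). The call of FCGR2A A_23_P85716 was lost without RPMI-8226 DMSO replicate 1 or MM.1S DMSO replicate 1 (adjusted p up to 0.0935) and with the replicate number as a block (1.56, limma adjusted p = 0.0649). That of FCGR2B was lost without RPMI-8226 DMSO replicate 1 or MM.1S DMSO replicate 2 (adjusted p up to 0.0865). Leaving out MM.1S DMSO replicate 1 lowered the number of calls from 9 to 5.

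FCER1A, FCER1G, FAIM3 and PIGR, other receptors for immunoglobulin or their shared chain, rose with UNC0638 in MM.1S. Of 15 such genes listed, 13 were on the array and 8 passed the filter in each line. In MM.1S, limma called none with GSK126 (1 at an unadjusted p under 0.05), 6 higher with UNC0638 and 7 higher with both agents, and none lower, where 5.06%, 12.8% and 22.2% of all probes were called higher. The list medians were 0.08, 0.81 and 0.76. FCER1A, the alpha chain of the high-affinity IgE receptor, read -3.56 and -4.16 with DMSO and -1.78 and -1.64 with UNC0638, 4.43-fold higher (2.15 ± 0.21, limma adjusted p = 0.00251). FCER1G, the ITAM chain shared by several Fc receptors, rose 1.64-fold (limma adjusted p = 0.0104) and FAIM3, the receptor for IgM, 1.86-fold (limma adjusted p = 0.00391).

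PIGR, which carries polymeric immunoglobulin across epithelia, was below background with DMSO and GSK126 in both lines. In RPMI-8226 it read -3.18 and -2.72 with UNC0638 and -1.14 and -0.77 with both agents, against -6.45 and -6.25 with DMSO. It was the only 1 of the 8 other receptors called with UNC0638 in that line (at least 2.48-fold, 3.40 ± 0.23, limma adjusted p = 0.0059) and rose at least 9.9-fold with both agents (limma adjusted p = 0.00024). In MM.1S, UNC0638 raised it at least 3.16-fold (2.72 ± 0.69, limma adjusted p = 0.0321). With GSK126 limma called none of the 8 in RPMI-8226 (1 at an unadjusted p under 0.05), and with both agents FCGR1B, a relative of the high-affinity IgG receptor, rose 17.2-fold (4.10 ± 0.75, limma adjusted p = 0.0195).

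Of 28 kinases, phosphatases and adaptors that act downstream of ITAM and ITIM motifs, 26 passed the filter in RPMI-8226 and 24 in MM.1S. In RPMI-8226, limma called none with GSK126 (6 at an unadjusted p under 0.05) and none with UNC0638 (3 at an unadjusted p under 0.05). With both agents 3 rose, where 7.1% of all probes were called higher. These were LYN, the kinase that phosphorylates both motifs (2.79-fold, 1.48 ± 0.15, limma adjusted p = 0.00265), VAV3 and PIK3R1. The list median with both agents was -0.01 beside -0.14 over all probes.

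In MM.1S, GSK126 raised LAT2, an adaptor (0.72), and lowered PTPN6, the phosphatase SHP-1 that binds ITIMs (-0.58), where 5.06% of all probes were called higher and 2.42% lower. UNC0638 raised 7 of the 24, led by BTK, the B cell tyrosine kinase, which read 0.43 and 0.42 with DMSO and 1.85 and 1.86 with UNC0638 (2.69-fold, limma adjusted p = 0.00133), and lowered FYN (-0.42). The 8 calls of 24 stand beside 29.5% of all probes called in either direction. With both agents 14 rose and 3 fell, where 22.2% of all probes were called higher and 31.5% lower, and the list median was 0.34 beside -0.12. BTK (1.32), FYN (1.21), PIK3CD (1.05), PLCG2 (1.04) and DOK3 (1.03) rose most on the log2 scale, and GRB2 (-0.52), PTPN6 (-0.46) and CSK (-0.29) fell.

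Between the DMSO groups, 3 of the 26 signalling genes were higher and 16 lower in RPMI-8226, where 28.9% of all probes were higher and 28.8% lower. BLK, a B cell SRC-family kinase, read 2.52 and 2.77 in RPMI-8226 and -5.76 and -5.61 in MM.1S, at least 171-fold higher (limma adjusted p = 6.44e-09). SYK, the kinase recruited by ITAMs, was 22.4-fold lower in RPMI-8226 (-4.48, limma adjusted p = 0.00902), PTPN6 11.8-fold lower and LYN 8.12-fold lower (-3.02, limma adjusted p = 1.31e-08). The 2 RPMI-8226 arrays of SYK with DMSO lay far apart, at -2.94 and 0.32.

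Genes next to the clusters were called in both directions, and their medians lay near 0. Of 62 other gene names with a probe within 500 kb of a probe of the family, 29 passed the filter in RPMI-8226 and 31 in MM.1S. In MM.1S, 1 rose and 1 fell with GSK126, 5 rose and 2 fell with UNC0638, and 8 rose and 8 fell with both agents, where 7.48%, 29.5% and 53.6% of all probes were called in either direction, with list medians of -0.03, -0.05 and -0.10. In RPMI-8226 the numbers were 1 and 1 with GSK126, 1 and 0 with UNC0638 and 6 and 3 with both agents, where 0.599%, 0.638% and 12.6% of all probes were called, with medians of -0.05, 0.10 and 0.07. CD1A, an antigen-presenting molecule of the CD1 group beyond FCRL1, rose at least 7.57-fold with both agents in MM.1S (5.07 ± 0.46, limma adjusted p = 0.000518) and at least 2.2-fold in RPMI-8226 (limma adjusted p = 0.0279).

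A transcript named DB335107, on the minus strand between the FCGR2C and FCGR2B probes at chr1:161570653-161570712, differed between the lines in its response to GSK126. In RPMI-8226 it read -6.36 and -6.12 with DMSO, -3.16 and -2.80 with GSK126, -4.21 and -4.75 with UNC0638 (below background), and -2.16 and -2.07 with both agents. In MM.1S it read -6.75 and -6.69, -6.73 and -6.32, -4.18 and -4.67, and -3.72 and -4.26 in the same order. GSK126 gave at least 2.43-fold over DMSO in RPMI-8226 (3.26 ± 0.23, limma adjusted p = 0.00987) and background values in MM.1S, a difference of 3.07 ± 0.36 (limma interaction, adjusted p = 0.00546). FCGR2A and FCGR2C had the same sign of that interaction. HSPA6, a heat shock gene between FCGR2A and FCGR2C, rose 8.26-fold with both agents in RPMI-8226 (limma adjusted p = 0.024).

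Markers of other blood cells moved in the same groups, and their part in the results was not tested. The summed signal of 11 myeloid markers, in units of the 75th percentile of each array, was 6.62 to 7.04 with DMSO, 6.55 to 7.51 with GSK126, 15.4 to 15.7 with UNC0638 and 15.9 to 16.5 with both agents in MM.1S, with 7 of them above background in each group. In RPMI-8226 that sum was 23.2 to 35 with DMSO, 29.6 to 41.1 with GSK126, 37.2 to 47.1 with UNC0638 and 47.5 to 53.3 with both agents, with 7, 8, 7 and 8 above background. CD14, CD33, SPI1, CD68, CYBB and CSF3R were above background in every group. CSF1R was so in every RPMI-8226 group, and ITGAM in every MM.1S group and in the RPMI-8226 groups given GSK126. LYZ, FCN1, MPO and CEBPE were not above background on both arrays of any group or not on the array. In the order GSK126, UNC0638 and both agents, limma called 2, 5 and 4 of the 7 myeloid genes kept in MM.1S higher. It called 1, 0 and 1 lower. Of all probes, 5.06%, 12.8% and 22.2% were higher and 2.42%, 16.7% and 31.5% lower. In RPMI-8226 it called 1, 0 and 2 of 8 higher and none lower. Of all probes there, 0.543%, 0.556% and 7.1% were higher and 0.056%, 0.0819% and 5.45% lower. CD14 and CSF3R did not rise in MM.1S with UNC0638 (-0.25 and -0.55). Of T cell markers kept, 0, 2 and 2 of 4 were higher in MM.1S, with CD8A lower with both agents. In RPMI-8226 those higher were 1, 3 and 4 of 5. In the order DMSO, GSK126, UNC0638 and both agents, the sum of 6 T cell markers was 0.788 to 0.816, 1.21 to 1.83, 4.23 to 4.96 and 12.6 to 14.4 in RPMI-8226, with 4, 4, 5 and 5 above background. In MM.1S it was 0.487 to 0.511, 0.508 to 0.559, 1.03 to 1.13 and 0.934 to 1.03, with 3, 3, 4 and 4.

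In the same order, the sum of 12 B cell markers was 4.59 to 5.62, 6.37 to 9.75, 5.81 to 6.37 and 10.3 to 11.8 in RPMI-8226 (6, 6, 7 and 7 above background) and 14.4 to 15.9, 15.3 to 19.2, 16.5 to 16.7 and 18.6 to 19.8 in MM.1S (7, 8, 8 and 9). That of 6 NK cell markers was 8.66 to 10.7, 6.17 to 7.63, 13.5 to 15.6 and 7.25 to 9.11 in RPMI-8226 (1, 1, 1 and 2) and 1.31 to 1.48, 1.47 to 1.9, 1.56 to 1.63 and 1.83 to 2.11 in MM.1S (3 in each group). The RPMI-8226 NK sum was highest with UNC0638, where NCAM1 was the marker above background. The sum of 10 plasma cell markers was 297 to 348, 260 to 290, 259 to 283 and 197 to 246 in RPMI-8226. In MM.1S it was 575 to 580, 397 to 449, 464 to 508 and 394 to 405. In every group 9 were above background. In MM.1S, limma called 3, 5 and 8 of 9 plasma cell markers lower with GSK126, UNC0638 and both agents, and none higher. Higher were 3, 4 and 6 of 9 B cell and 0, 1 and 1 of 3 NK cell markers, and none lower. In RPMI-8226, 1, 1 and 4 of 7 B cell and 0, 0 and 1 of 2 NK cell markers were higher and none lower. Of 9 plasma cell markers there, 0, 1 and 1 were higher and 0, 0 and 3 lower.

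Over the 8 MM.1S arrays, the genes outside the family whose normalised log2 level was most like that of FCRL5 A_23_P201211 were RGL1 (Pearson r = 0.9982), PLCB1 (0.9975), TDRD7 (0.9975), ZG16B (0.9971) and CHRNA1 (0.9969), among 25100 probes. The arrays share 4 treatments, so such values describe a common order of the groups. Over the 8 RPMI-8226 arrays, where FCRL5 was near background, they were POGK (0.9734), LOC100505641 (0.9701), XLOC_012630 (0.9641), ZNF323 (0.9626) and RNF135 (0.953).

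The promoters of the family were poor in CG pairs. RefSeq (GRCh38.p14) gave 12 promoters for 9 of the 10 genes, all but FCGR2C, each with 250 bases before the start and 50 after it. They held 0 to 5 CG pairs with a median of 1.0, where the median of all 35116 promoters was 14.0. The letters AGGAAGT, the core bound by several ETS factors, were looked for after the promoters had been read, on both strands. They were in promoters of FCRL5, FCRL2, FCRL1 and FCRLA, 4 of 12 family promoters, and in 8.24% of all promoters. The longer GAGGAAGT, the PU.1 type of that motif, overlaps it and was in 2 of 12 (FCRL1 and FCRLA) and in 2.59% of all. The core of the interferon-stimulated response element (GAAA, any 2 bases, GAAA) was in 3 of 12 (FCRL1, FCGR2B and FCRLA) and in 3.57% of all, and the octamer ATGCAAAT in 1 (FCRLB) and in 1.77%.

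The 120 bases before the start of the 4 genes with AGGAAGT are shown because they hold the motif, among them those of FCRLA and FCRL5. They are written along the strand of the gene, and the capitals mark the motif as read on that strand, ACTTCCT.
FCRLA: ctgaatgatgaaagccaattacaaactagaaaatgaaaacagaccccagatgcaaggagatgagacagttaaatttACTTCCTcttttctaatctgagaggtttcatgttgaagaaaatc
FCRL5: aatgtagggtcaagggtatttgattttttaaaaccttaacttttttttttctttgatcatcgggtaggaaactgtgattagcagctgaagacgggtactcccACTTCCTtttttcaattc
FCRL2: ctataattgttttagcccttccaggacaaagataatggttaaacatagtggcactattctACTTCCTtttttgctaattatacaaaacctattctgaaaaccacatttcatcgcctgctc
FCRL1: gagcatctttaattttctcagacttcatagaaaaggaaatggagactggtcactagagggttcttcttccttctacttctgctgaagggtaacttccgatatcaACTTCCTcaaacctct
On GRCh38.p14 these windows are chr1:161707109-161707228 on the plus strand for FCRLA, and on the minus strand chr1:157552516-157552635 for FCRL5, chr1:157777133-157777252 for FCRL2 and chr1:157820121-157820240 for FCRL1. The motif began 44, 18, 60 and 16 bases before the start of FCRLA, FCRL5, FCRL2 and FCRL1. A match of letters is a description of the sequence and says nothing of binding in these cells.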

How the data were processed

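Total RNA was hybridised by the authors to 16 Agilent SurePrint arrays and read with Feature Extraction 10.7, the version in the submitters' processing notes. The deposited intensity is the processed signal (background-subtracted on each array). The deposited series table holds the same intensity in rounded form, equal to the rounded processed signal in 99.9956% of 939472 values. From the intensity, log2 values minus the log2 of the array's 75th percentile were computed in R 4.3.3 (data.table version 1.17.8). The 4259 control spots of 62976 and the 220 to 358 outlier spots of an array were left out, and spots of a probe were averaged. limma 3.58.1 was fitted to all probes kept for a line (8 arrays) or for both (16 arrays), with Benjamini-Hochberg adjustment over all of them. Groups came from the labels, as did the replicate numbers. In RPMI-8226, all 6 pairs of groups had same-numbered arrays deviating together (r 0.254 to 0.415), so these numbers were taken to pair the arrays. Same-numbered arrays also shared a row of the slide, so a pairing of the samples and an effect of the row cannot be told apart. The family and the lists were chosen with earlier results of these data known. Every gene of the family is named, with at most 5 called genes per list, contrast and direction, and the 5 genes most like FCRL5. The fits were tested on simulated data.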

Additional observations from a re-analysis of the deposited data

Results flagged for a closer look

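The response to an agent differed between the lines for 10 probe and agent pairs by the interaction in limma, given as RPMI-8226 minus MM.1S on the log2 scale. With GSK126 these were FCRL5 A_23_P201211 (-3.52) and A_33_P3335506 (-4.22), where FCRL5 rose in MM.1S and stayed near background in RPMI-8226. They were also FCGR2A A_33_P3403576 (3.11) and FCGR2C (2.26), which rose more in RPMI-8226. With UNC0638 these were FCRL3 A_33_P3368334 (-3.53), FCRL5 A_23_P201211 (-2.80), A_33_P3335506 (-4.99), A_33_P3335525 (-3.41) and A_33_P3335522 (-4.17), and FCGR2B (-3.33). The FCRL5 probes other than A_23_P201211 passed the filter only through treated MM.1S groups, so a larger response in MM.1S was built in for them. Each line was on its own slide, so that slide and line cannot be told apart.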

How the results depend on the processing

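Of 818 comparisons of the 65 single calls with an alternative, 682 kept direction and side of the threshold, 134 kept the direction but missed the threshold, and 2 turned, the FCGR2B and FCGR2C differences between the DMSO groups with normexp (0.1 and 0.11). Counts of called probes moved as follows. For GSK126 against DMSO in MM.1S (11), normexp left 7, no filter 6, only probes well above background on all arrays 4, 1 fit over 16 arrays 7, and leaving out an array 4 to 7. For GSK126 against DMSO in RPMI-8226 (3), no filter and the all-array filter left 1 each, the replicate block 5, and leaving out an array 0 to 1. For UNC0638 against DMSO in RPMI-8226 (3), no filter and the all-array filter left 1 each, the replicate block 5, and leaving out an array 1 to 1. In MM.1S (16), the all-array filter left 6, and leaving out an array 16 to 17. For GSK126 against UNC0638 in MM.1S (12), the all-array filter left 5, and leaving out an array 8 to 10. In RPMI-8226 (1), quantile normalisation, normexp, no filter and the all-array filter left 0, the replicate block 4, 1 fit over 16 arrays 4, and leaving out an array 0 to 0. For the DMSO groups (9), the all-array filter left 1, and leaving out an array 5 to 8. For the interactions, the all-array filter left 0 with GSK126 (4) and 0 with UNC0638 (6), the replicate block gave 10 with UNC0638, and leaving out an array 1 to 4 and 4 to 8. The combination counts past 2-fold ran from 10 to 14 in RPMI-8226 and 18 to 19 in MM.1S. The all-array filter keeps 4 probes of the family in RPMI-8226, 6 in MM.1S and 3 over both lines, which bounds its counts.

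In MM.1S same-numbered arrays deviated together in 5 of 6 pairs of groups (r 0.085 to 0.225), so the replicate block stands here only. Against the percentile of probes detected on all arrays, the median of all probes moved by 0.14 in RPMI-8226 and 0.19 in MM.1S for both agents against DMSO, and with normexp by 0.15 between the DMSO groups. The slide as a block could not be run, since each line has 1 slide. Dim probes limit the size of most changes, and 2 arrays a group limit their precision.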
